A study of Mus musculus with 39 samples.

Results

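The genes described are 36 imprinted mouse genes, listed by symbol, of which 35 had a probe on the array through the RefSeq accession of the probe. They belong to 18883 named genes with a probe. Of the 35 genes, 21 are known as paternally expressed (*Igf2*, *Peg3*, *Mest*, *Snrpn*, *Plagl1*, *Sfmbt2*, *Dlk1*, *Impact*, *Nnat*, *Peg10*, *Sgce*, *Ndn*, *Magel2*, *Mkrn3*, *Usp29*, *Rasgrf1*, *Peg12*, *Gab1*, *Smoc1*, *Slc38a4* and *Ddc*). A further 13 are known as maternally expressed (*Igf2r*, *Grb10*, *Cdkn1c*, *Phlda2*, *Slc22a18*, *Ube3a*, *Zim1*, *Ascl2*, *Cd81*, *Meg3*, *Kcnq1*, *Dcn* and *Copg2*), and *Gnas* gives transcripts from either allele. *H19* was not analysed here. The genes had 58 probes. Each gene with several probes, as 16 of them had, is given by its lead probe, the one well above background on the most arrays. All 35 lead probes passed the filter on low values, and none was saturated on any array.

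Genomic imprinting is the expression of a gene from the allele of a single parent, set by marks that the egg or the sperm lays down, most often DNA methylation and for some genes trimethylation of histone H3 at lysine 27. The DNA methylation marks survive the reprogramming after fertilization and are kept in somatic cells, so a donor nucleus brings its own set into the oocyte. The histone marks are for the most part not kept in somatic cells. Many of the genes act on growth and on the placenta: *Igf2* is a growth factor, *Igf2r* clears it, and *Grb10*, *Cdkn1c* and *Phlda2* restrain growth. *Sfmbt2*, *Gab1*, *Smoc1* and *Slc38a4* are among the genes whose imprint is known to rest on the histone mark. The probes measure the transcripts of both alleles together, so that the parental origin of a transcript was not measured.

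The study compared 2-cell mouse embryos made by somatic cell nuclear transfer (SCNT) with fertilized ones. All samples carried the strain label (B6xDBA/2)F1, and the oocytes and the donor cells came from females of 8 to 10 weeks. Unfertilized metaphase II oocytes (OC, n = 7) and 2-cell embryos from in vitro fertilization (IVF, n = 6) were compared with embryos cloned from cumulus cells without TSA (TSA(–), n = 8) and with TSA (TSA(+), n = 6). TSA, trichostatin A, inhibits histone deacetylases and had been given at 5 nM for 8 h from activation. Other cloned embryos had received *Spi-C* mRNA at 1.0 or 0.1 mg/ml into the cytoplasm at the pronuclear stage, without TSA (Spi-C NT, n = 4 at each concentration). *Spi-C* encodes a transcription factor of the ETS family. The donor cells were cumulus cells (Cumulus, n = 4), the somatic cells around the oocyte. Each array held RNA of 10 pooled oocytes or of 10 pooled embryos cultured for 24 h, or of 500 cumulus cells, after 2 rounds of linear amplification. Nothing in the labels ties an array to a female or to a day of collection, so p-values measure the spread between these arrays.

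Levels are log2 of the processed intensity minus log2 of the 75th percentile of that array, so a level is no absolute amount. Levels of different genes cannot be set against each other on this scale. In bulk RNA, fewer cells with a transcript and less of it per cell cannot be told apart. Groups were compared with limma over 39517 probes, and a gene was called when the Benjamini-Hochberg adjusted p of its lead probe was under 0.01. Each probe had 1 spread shared by all groups fitted together, so groups outside a comparison also set its standard error. Differences are on the log2 scale and are given ± their standard error. The OC, IVF, TSA(–) and TSA(+) arrays lay on 9 slides read with the same scanner model. The Cumulus arrays and the Spi-C NT arrays lay on 3 other slides read with another model, so for these groups slide, scanner and group cannot be told apart. Of all probes, a median of 57.54% in OC, 62.99% in Cumulus and 71.57 to 73.21% in the embryo groups were well above background. The summed signal of 9 cumulus cell markers was highest in Cumulus arrays (222 to 243 times the 75th percentile), against 4.81 to 8.6 in IVF and, among cloned embryos, 4.53 to 8.5 without TSA, 8.37 to 11.3 with TSA and 4.94 to 7.36 with *Spi-C* mRNA. All 7 oocyte markers were well above background on all OC and all IVF arrays, and in Cumulus 1 of them was on all arrays and 3 were on none. Of the 5 measured markers of the 2-cell embryo, all were well above background on all IVF, TSA(–) and TSA(+) arrays, and in Cumulus none was on all arrays. In OC, 4 of these 5 markers were well above background on all arrays and 1 was on none, so their detection does not tell embryos from oocytes. The summed levels of these markers differed between the embryo groups. For the markers of the 2-cell embryo the sum in IVF lay between 134 and 181 times the 75th percentile, against 32.2 to 97.7 without TSA, 52 to 116 with TSA and 27.8 to 59.2 with *Spi-C* mRNA, so that all cloned arrays lay below all IVF arrays. In OC this sum was 26 to 40.8, which overlapped with cloned embryos without TSA and with those given *Spi-C* mRNA at 0.1 mg/ml. For the oocyte markers the sum in IVF lay between 588 and 637, against 502 to 590 without TSA, 441 to 500 with TSA and 352 to 431 with *Spi-C* mRNA. These sums moved with the comparisons of cloned with fertilized embryos below, and their part in the results was not tested.

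The lead probe was well above background on all arrays of a group for 22 of the 35 genes in OC, 32 in IVF, 30 in cloned embryos with or without TSA, 31 at either concentration of *Spi-C* mRNA and 26 in Cumulus. For 17 genes this held on all 39 arrays. *Dcn*, which encodes decorin, a proteoglycan of the matrix, was near background in every group and was well above it on 15 of the 39 arrays. *Mkrn3*, which encodes a RING finger protein, reached this on all arrays only in Cumulus and on 14 arrays in all.

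Of the 35 genes, 24 lay within 1 Mb of another member in RefSeq, in 8 neighbourhoods, and 16 genes were on chromosome 7. The largest neighbourhood held *Igf2*, *Ascl2*, *Cd81*, *Kcnq1*, *Cdkn1c*, *Slc22a18* and *Phlda2*. *Ndn*, *Magel2*, *Mkrn3* and *Peg12* made up another, and so did *Zim1*, *Peg3* and *Usp29*. Of the 6 genes whose level differed from IVF without overlap in both TSA(–) and TSA(+) embryos (*Nnat*, *Phlda2*, *Cdkn1c*, *Gab1*, *Igf2r* and *Impact*), 4 had a promoter sequence and are shown by the 250 bases before their start, to give the base composition at which their transcription begins. The share of all genes without such overlap was not worked out, so the 6 genes serve only to choose the sequences. The regions that set the imprint of *Phlda2* and *Igf2r* are known to lie elsewhere, inside *Kcnq1* and inside *Igf2r*, and are not shown. The sequences are from RefSeq (GRCm38.p6), 5′ to 3′ on the strand of the gene, with every CG dinucleotide, the target of DNA methylation, in capitals.
Nnat, chr2:157559828-157560077, plus strand: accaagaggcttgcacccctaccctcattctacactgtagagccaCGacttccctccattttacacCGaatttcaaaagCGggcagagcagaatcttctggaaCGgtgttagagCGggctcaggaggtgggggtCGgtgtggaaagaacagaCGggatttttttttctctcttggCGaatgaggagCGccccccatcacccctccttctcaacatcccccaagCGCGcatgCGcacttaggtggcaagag
Phlda2, chr7:143502525-143502774, minus strand: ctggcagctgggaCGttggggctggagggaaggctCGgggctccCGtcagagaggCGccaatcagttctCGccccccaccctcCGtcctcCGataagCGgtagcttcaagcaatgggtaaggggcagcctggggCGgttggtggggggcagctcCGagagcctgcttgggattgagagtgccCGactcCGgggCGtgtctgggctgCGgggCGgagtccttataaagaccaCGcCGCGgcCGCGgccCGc
Gab1, chr8:80880520-80880769, minus strand: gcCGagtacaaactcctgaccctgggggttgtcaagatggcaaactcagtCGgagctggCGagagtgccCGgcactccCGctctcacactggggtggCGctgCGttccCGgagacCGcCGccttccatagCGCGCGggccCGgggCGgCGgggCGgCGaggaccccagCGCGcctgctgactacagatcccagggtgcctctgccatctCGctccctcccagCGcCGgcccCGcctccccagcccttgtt
Igf2r, chr17:12769707-12769956, minus strand: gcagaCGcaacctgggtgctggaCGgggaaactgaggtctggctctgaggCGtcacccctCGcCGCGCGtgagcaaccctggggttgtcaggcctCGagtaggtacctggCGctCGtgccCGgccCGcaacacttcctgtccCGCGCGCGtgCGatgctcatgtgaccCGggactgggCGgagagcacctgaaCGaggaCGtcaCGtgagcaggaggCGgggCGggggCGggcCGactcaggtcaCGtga
These stretches held 12 CG dinucleotides for *Nnat*, 21 for *Phlda2*, 24 for *Gab1* and 27 for *Igf2r*. As many or more were found in 33.5%, 16.3%, 12% and 8.56%, respectively, of the 32851 stretches of the same length in the table, whose median was 6. Of the 35 genes, 28 had such a stretch, with a median of 11 and a range of 0 to 40. Methylation of these bases was not measured.

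The comparison of cloned with fertilized embryos asks how far transcript levels in cloned embryos match those after fertilization. Transcripts left from the oocyte are measured together with new ones, and their part in the differences was not tested. In TSA(–) embryos, 8 of the 35 genes were called against IVF, 4 higher and 4 lower, which is 22.9% of them beside 23.5% of the 18570 genes tested (10.1% higher and 13.4% lower). In TSA(+) embryos, 11 were called, 5 higher and 6 lower, which is 31.4% beside 24.2% (10.4% higher and 13.9% lower). The share in TSA(–) embryos was near that of all genes. The median log2 difference over the 35 genes was −0.07 in TSA(–) and −0.21 in TSA(+), beside −0.11 and −0.19 over all genes. Of the 21 paternally expressed genes, 3 were higher and 2 lower in TSA(–), and 4 were higher and 2 lower in TSA(+). Of the 13 maternally expressed genes, 1 was higher and 2 were lower in TSA(–), and 1 was higher and 3 were lower in TSA(+). Both classes thus held genes that changed in either direction. The comparisons share the IVF arrays.

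**Figure D1:**
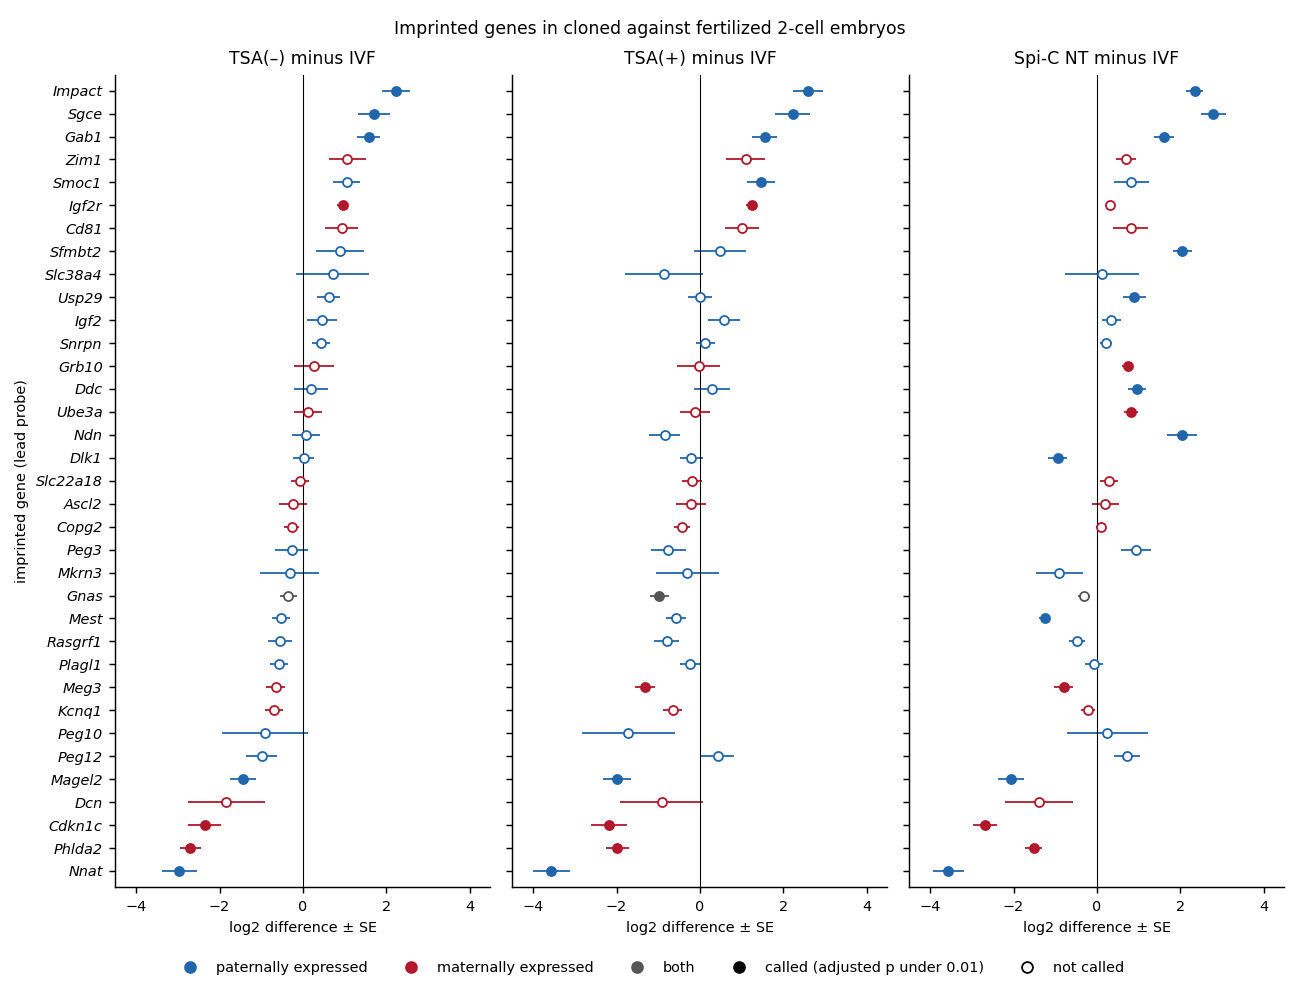
Log2 difference (x axis, ± SE) of each of the 35 imprinted genes (y axis, lead probe) from IVF embryos in TSA(–), TSA(+) and Spi-C NT embryos. Filled points were called at an adjusted p under 0.01; *Nnat*, at −2.97, −3.56 and −3.56, lies at the left of all 3 panels.

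The genes that fell in cloned embryos were led by the paternally expressed *Nnat* (neuronatin, a small membrane protein) and the maternally expressed *Phlda2* and *Cdkn1c*. The level of *Nnat* was −1.79 to 0.10 (median −1.07) in IVF, −4.78 to −3.42 (median −3.91) in TSA(–), −5.43 to −3.43 (median −4.58) in TSA(+) and −5.62 to −3.76 (median −4.37) in Spi-C NT. Every IVF array was above every cloned array. On the log2 scale the difference from IVF was −2.97 ± 0.42 (adjusted p = 2.77e-06) in TSA(–), which is 7.84-fold lower, and −3.56 ± 0.45 (adjusted p = 4.83e-07) in TSA(+). On the 3 slides that held both IVF and TSA(–) arrays, it ranged from −4.01 to −2.66. *Nnat* was near background in oocytes, where it was well above it on none of the 7 arrays, and its 4 Cumulus levels were −4.27, −4.02, −5.30 and −2.83, of which all but the last lay within the range of the cloned embryos.

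*Phlda2*, a gene that limits the growth of the placenta, had levels of 3.38 to 4.38 (median 3.73) in OC and 2.84 to 3.86 (median 3.19) in IVF. In cloned embryos they were −0.10 to 0.98 (median 0.70) in TSA(–), 0.60 to 1.78 (median 1.34) in TSA(+) and 1.16 to 1.99 (median 1.77) in Spi-C NT. The cloned arrays all lay below the IVF arrays, and the IVF arrays overlapped those of oocytes. The log2 difference from IVF was −2.70 ± 0.25 (adjusted p = 2.8e-09) in TSA(–), or 6.51-fold lower, and −1.98 ± 0.27 (adjusted p = 1.96e-06) in TSA(+). A further probe for the gene fell by 2.66 and 2.01 on the log2 scale. In Cumulus, *Phlda2* levels were −8.07, −7.53, −7.24 and −6.13, and the signal was well above background on 1 of the 4 arrays.

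*Cdkn1c* encodes an inhibitor of cyclin-dependent kinases and lies in the same neighbourhood as *Phlda2*. Its levels were −3.74 to −0.50 (median −1.76) in OC, 1.5 to 2.19 (median 1.92) in IVF, −1.02 to 0.10 (median −0.34) in TSA(–), −1.84 to 0.72 (median −0.09) in TSA(+) and −1.42 to −0.28 (median −0.67) in Spi-C NT. The IVF arrays again stood above all others. It differed from IVF on the log2 scale by −2.36 ± 0.40 (adjusted p = 3.41e-05) in TSA(–), or 5.13-fold lower, and −2.18 ± 0.42 (adjusted p = 0.000215) in TSA(+). The levels in Cumulus were −4.45, −4.63, −4.02 and −3.52, below all embryo arrays. Of the other 5 genes of this neighbourhood (*Igf2*, *Ascl2*, *Cd81*, *Kcnq1* and *Slc22a18*), none was called against IVF in TSA(–) or TSA(+), with log2 differences between −0.70 for *Kcnq1* and 0.93 for *Cd81* in TSA(–).

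The fourth gene that fell was *Magel2*, which encodes a MAGE family protein that acts with ubiquitin ligases and is paternally expressed. Its levels were −5.06 to −2.15 (median −3.49) in IVF, −5.81 to −4.47 (median −4.87) in TSA(–), −5.96 to −5.32 (median −5.49) in TSA(+) and −5.91 to −5.45 (median −5.65) in Spi-C NT. IVF arrays spread widely, and the lowest of them overlapped with TSA(–) arrays. The log2 difference was −1.43 ± 0.31 (adjusted p = 0.000804) in TSA(–) and −1.99 ± 0.33 (adjusted p = 3.65e-05) in TSA(+). The call in TSA(–) was lost with the slide as a fixed block (adjusted p = 0.0337) and when IVF and TSA(–) alone were fitted, and on 1 of 4 shared scan days the difference was 0.02.

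Among the genes that rose, *Impact*, *Sgce* and *Gab1* are paternally expressed and *Igf2r* is maternally expressed. *Impact* encodes an inhibitor of the kinase Gcn2, which controls translation under amino acid shortage. Its levels were −7.16 to −4.16 (median −5.42) in OC, −1.68 to −0.61 (median −1.02) in IVF, 0.27 to 1.64 (median 1.15) in TSA(–), 1.23 to 1.79 (median 1.5) in TSA(+) and 0.67 to 1.68 (median 1.29) in Spi-C NT, and 1.64, 1.87, 2.62 and 1.68 in the 4 Cumulus arrays. All cloned arrays and all Cumulus arrays lay above all IVF arrays. The log2 difference from IVF was 2.23 ± 0.33 (adjusted p = 6.74e-06) in TSA(–), or 4.7-fold, and 2.59 ± 0.36 (adjusted p = 2.02e-06) in TSA(+), or 6.03-fold. On the shared slides it was 1.74 to 3.13 in TSA(–) and 2.3 to 2.91 in TSA(+).

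*Sgce*, which encodes epsilon-sarcoglycan, a membrane glycoprotein, had levels of −2.45 to −0.08 (median −0.72) in IVF, −0.50 to 1.54 (median 0.76) in TSA(–), 0.70 to 1.69 (median 1.27) in TSA(+) and 1.27 to 2.29 (median 1.76) in Spi-C NT. In Cumulus they were 3.83, 3.94, 4.59 and 4.08. The Cumulus arrays were the highest, and the overlap with IVF came from a single TSA(–) array. The log2 difference from IVF was 1.70 ± 0.39 (adjusted p = 0.00133) in TSA(–) and 2.23 ± 0.42 (adjusted p = 0.000147) in TSA(+). With the slide as a fixed block the call in TSA(–) was lost (adjusted p = 0.124). *Peg10*, its neighbour and a gene derived from a retrotransposon, was not called, and differed from IVF by −0.91 ± 1.04 in TSA(–) and −1.72 ± 1.11 in TSA(+).

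*Gab1*, a docking protein below receptor tyrosine kinases, had levels of −0.10 to 1.28 (median 0.53) in OC, −1.36 to 0.24 (median −0.23) in IVF, 0.42 to 1.69 (median 1.10) in TSA(–), 0.45 to 1.5 (median 1.20) in TSA(+) and 0.82 to 1.73 (median 1.18) in Spi-C NT. The cloned arrays lay above the IVF arrays without overlap. Against IVF the log2 difference was 1.57 ± 0.28 (adjusted p = 7.63e-05) in TSA(–), or 2.98-fold, and 1.55 ± 0.30 (adjusted p = 0.000209) in TSA(+). The 4 Cumulus levels were 0.68, −0.26, −0.20 and 1.11, which overlapped both with IVF and with cloned embryos.

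*Igf2r*, the receptor that takes Igf2 into lysosomes, had levels of 4.99 to 5.96 (median 5.31) in OC, 1.83 to 2.18 (median 2.01) in IVF, 2.66 to 3.14 (median 3.0) in TSA(–), 3.04 to 3.42 (median 3.29) in TSA(+) and 2.10 to 2.49 (median 2.35) in Spi-C NT. Oocytes had the highest and IVF embryos the lowest median of all groups, and the TSA(–) and TSA(+) arrays did not overlap with IVF. The log2 difference from IVF was 0.95 ± 0.13 (adjusted p = 1.78e-06) in TSA(–), or 1.94-fold, and 1.24 ± 0.14 (adjusted p = 7.59e-08) in TSA(+), or 2.36-fold. The 4 Cumulus levels were 3.22, 3.27, 3.06 and 2.97. *Igf2*, the growth factor that this receptor binds, was not called, with 0.45 ± 0.36 in TSA(–) and 0.58 ± 0.39 in TSA(+).

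**Figure D2:**
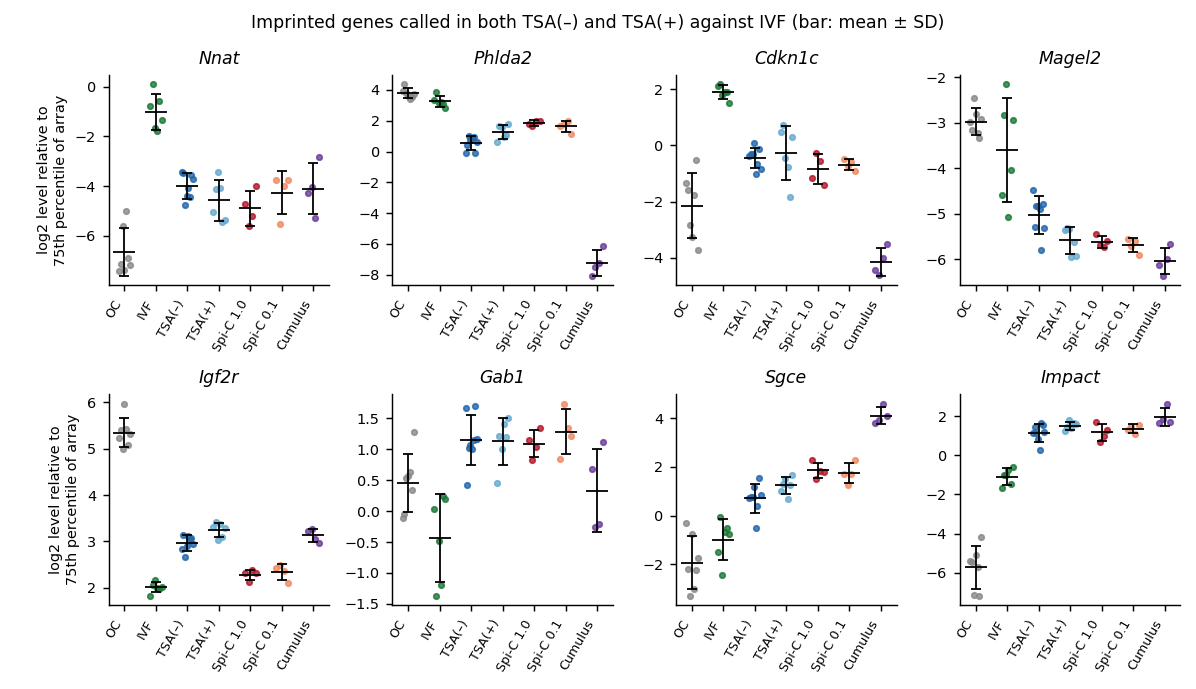
Levels (y axis, log2 relative to the 75th percentile of the array) of the 8 imprinted genes called against IVF in both TSA(–) and TSA(+), in the 7 groups (x axis). Points are arrays and black bars the mean ± SD; *Nnat*, *Phlda2*, *Cdkn1c* and *Magel2* are lower in the cloned groups than in IVF, and *Igf2r*, *Gab1*, *Sgce* and *Impact* are higher in TSA(–) and TSA(+).

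Called against IVF in TSA(+) but not in TSA(–) were *Meg3*, *Gnas* and *Smoc1*, and none of the 3 was called between TSA(+) and TSA(–). *Meg3*, a maternally expressed non-coding RNA, had levels of −1.63 to −0.97 (median −1.39) in IVF, −2.69 to −1.17 (median −1.96) in TSA(–) and −3.12 to −2.33 (median −2.65) in TSA(+). The TSA(+) arrays all lay below IVF, and the TSA(–) arrays overlapped with it. The log2 difference from IVF was −1.32 ± 0.24 (adjusted p = 8.74e-05) in TSA(+) and −0.65 ± 0.22 (adjusted p = 0.027) in TSA(–). Another of its 5 probes, well above background on all IVF, TSA(–) and TSA(+) arrays, was called lower in both, by 1.24 in TSA(–) and 1.74 in TSA(+) on the log2 scale. *Dlk1*, the paternally expressed neighbour of *Meg3* and a ligand-like protein of the Notch family, differed from IVF by 0.01 ± 0.26 in TSA(–).

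*Gnas*, the locus of the stimulatory G protein alpha subunit, had levels of −2.34 to −1.61 (median −2.04) in IVF, −2.61 to −2.04 (median −2.39) in TSA(–) and −3.51 to −2.42 (median −2.90) in TSA(+), with a log2 difference of −0.97 ± 0.22 (adjusted p = 0.00144) in TSA(+). The call was lost with the slide as a fixed block and with the mean over the 3 probes of the gene (highest adjusted p = 0.0307). *Smoc1*, a secreted calcium-binding protein, had levels of −7.68 to −5.65 (median −6.53) in IVF, −6.45 to −4.78 (median −5.55) in TSA(–) and −5.56 to −4.16 (median −5.40) in TSA(+). It was well above background on 4 of 6 IVF arrays and on all TSA(–) and TSA(+) arrays. The log2 difference was 1.47 ± 0.34 (adjusted p = 0.00161) in TSA(+) and 1.05 ± 0.32 (adjusted p = 0.0137) in TSA(–).

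Several genes had probes that did not move alike. The lead probe of *Sfmbt2*, which encodes a polycomb group protein, was not called, with 0.89 ± 0.58 in TSA(–) and 0.49 ± 0.62 in TSA(+). These standard errors include the spread of OC arrays, whose SD for *Sfmbt2* was 2.218, against 0.239 in IVF and 0.593 in TSA(–). The other 2 *Sfmbt2* probes were called higher in both, by 1.76 and 3.59 in TSA(–) and by 1.77 and 3.51 in TSA(+), and each of them was well above background on 4 of 6 IVF arrays. A second probe of *Slc38a4*, which encodes an amino acid transporter, was called higher in TSA(–) (0.99, adjusted p = 0.00424), whereas the lead probe differed by 0.71 ± 0.87. That second probe was well above background on 3 of 6 IVF arrays. *Rasgrf1*, a Ras exchange factor, had a second probe called lower by 1.72 in TSA(–) and by 2.90 in TSA(+) on the log2 scale. This probe was well above background on all IVF arrays, 6 of 8 TSA(–) arrays and 3 of 6 TSA(+) arrays. *Grb10*, an adaptor that dampens insulin and IGF signalling, was not called by its lead probe (0.26 ± 0.48 in TSA(–)). The SD of that probe was 2.604 in Cumulus, which shares the fit, and 0.366 in IVF. Of its other 2 probes, 1 was called lower in TSA(–) and both were in TSA(+). The probe called in TSA(–) was near background, being well above it on 0 of 8 TSA(–), 1 of 6 TSA(+) and 4 of 6 IVF arrays. Which transcripts the probes read was not analysed here.

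Of the 4 genes with a histone-based imprint named above, *Gab1* was called by lead probe in TSA(–), and *Gab1* and *Smoc1* were in TSA(+), all higher. That is 25% of the 4 beside 10.1% of all genes called higher (23.5% in either direction) in TSA(–). In TSA(+) it is 50% beside 10.4% (24.2% in either direction), and a share of 4 genes is coarse. Other probes of *Sfmbt2*, in both groups, and of *Slc38a4*, in TSA(–), were also called higher, as given above. The lead probes of all 4 lay above 0 in TSA(–), between 0.71 and 1.57 on the log2 scale, and *Slc38a4* lay below 0 in TSA(+) at −0.86.

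Genes not called in TSA(–) or TSA(+) included *Peg3*, a zinc finger gene (−0.27 ± 0.39 in TSA(–)), *Mest*, which encodes a hydrolase (−0.52 ± 0.22), *Snrpn*, a splicing protein gene (0.43 ± 0.22), and *Plagl1*, a zinc finger gene (−0.58 ± 0.22). *Copg2*, which encodes a coat protein of vesicles (−0.27 ± 0.18), *Ube3a*, which encodes a ubiquitin ligase (0.13 ± 0.34), and *Ascl2*, a transcription factor gene of the trophoblast (−0.24 ± 0.33), were also not called. *Zim1*, another zinc finger gene, had no overlap between TSA(+) and IVF arrays but an adjusted p of 0.0823, with 1.10 ± 0.47. Its standard error includes the spread of OC arrays, whose SD was 1.631, against 0.473 in IVF and 0.189 in TSA(+). The remaining genes not called (*Cd81*, *Usp29*, *Igf2*, *Ddc*, *Ndn*, *Slc22a18*, *Mkrn3*, *Kcnq1*, *Peg12*, *Peg10*, *Dcn*, *Rasgrf1*, *Dlk1*, *Grb10*, *Sfmbt2* and *Slc38a4*) had log2 differences in TSA(–) between −1.84 for *Dcn* and 0.93 for *Cd81*.

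The direct comparison of TSA(+) with TSA(–) asks what TSA changed in cloned embryos. None of the 35 genes was called with limma, beside 0.118% of the genes tested (0.0754% higher and 0.0431% lower). An unadjusted p under 0.05 was found for 7 genes, a count that cannot be read without the share of all genes, which is not given here. These were *Peg12* (1.42 ± 0.37, adjusted p = 0.0509), *Phlda2* (0.72 ± 0.25, adjusted p = 0.144) and *Igf2r* (0.29 ± 0.13, adjusted p = 0.268), with values above 0, and *Meg3* (−0.67 ± 0.22, adjusted p = 0.121), *Gnas* (−0.62 ± 0.21, adjusted p = 0.126), *Ndn* (−0.93 ± 0.35, adjusted p = 0.181) and *Usp29* (−0.62 ± 0.27, adjusted p = 0.248), with values below 0. *Peg12*, which encodes a protein related to the Gsk3-binding Frat proteins, was the only gene without overlap, with −6.74 to −4.94 (median −5.60) in TSA(–), −4.71 to −3.61 (median −4.17) in TSA(+) and −5.20 to −3.77 (median −4.80) in IVF. The one-way test followed by Tukey's HSD called *Peg12* and no other of the 35 genes. The share of all genes called by that test is not given here, so this count cannot be set against the 0.118% of limma. For *Ndn*, 1 TSA(+) spot was marked as an outlier and left out. The median log2 difference over the 35 genes was −0.05, beside −0.03 over all genes, and the paternally and maternally expressed genes had medians of −0.22 and 0.04. The difference between these classes was not tested.

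Spi-C NT embryos were compared with TSA(–) embryos to see what the injected mRNA changed. Of the 35 genes, 12 were called, which is 34.3% of them beside 24.2% of all genes. The 9 higher genes make up 25.7% beside 13.6%, and the 3 lower ones 8.57% beside 10.5%. Median centring of the arrays left 5 higher and 3 lower genes, and the share of all genes in that setting is not given here. The median log2 difference was 0.12 over the 35 genes and 0.10 over all genes. The Spi-C NT arrays were read with another scanner on slides of their own, and their part in these differences cannot be told apart from that of the mRNA.

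*Ndn* (necdin, a growth-restraining MAGE family protein) showed the largest difference of the lead probes. Its levels were −5.40 to −3.98 (median −4.18) in IVF, −5.63 to −2.13 (median −4.41) in TSA(–) and −5.97 to −4.86 (median −5.08) in TSA(+). At 1.0 mg/ml of *Spi-C* mRNA they were −2.92, −2.24, −2.29 and −2.07, and at 0.1 mg/ml −2.08, −2.74, −2.18 and −2.60. A single TSA(–) array, at −2.13, overlapped with the Spi-C NT arrays, and all IVF arrays lay below them. The log2 difference was 1.95 ± 0.34 (adjusted p = 7.56e-05). *Peg12*, its neighbour, had −3.76, −4.51, −3.23 and −4.15 at 1.0 mg/ml and −3.84, −3.73, −3.05 and −4.93 at 0.1 mg/ml, all above the TSA(–) arrays, with a log2 difference of 1.71 ± 0.28 (adjusted p = 4.21e-05). Against IVF the difference of *Peg12* was 0.72 ± 0.31 and was not called. *Magel2* of the same neighbourhood was not called against TSA(–) (−0.63 ± 0.29).

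For *Phlda2* and *Igf2r*, the median of Spi-C NT arrays lay between those of TSA(–) and IVF. *Phlda2* levels were 1.79, 1.64, 1.99 and 1.99 at 1.0 mg/ml and 1.65, 1.76, 1.97 and 1.16 at 0.1 mg/ml. They were higher than in TSA(–) by 1.19 ± 0.20 (adjusted p = 3.75e-05) and lower than in IVF (−1.51 ± 0.21, adjusted p = 1.57e-06). The further *Phlda2* probe differed from TSA(–) by 0.45, which was not called (adjusted p = 0.0707). *Igf2r* levels were 2.31, 2.13, 2.38 and 2.32 at 1.0 mg/ml and 2.43, 2.49, 2.37 and 2.10 at 0.1 mg/ml. They were below all TSA(–) arrays (−0.65 ± 0.09, adjusted p = 3.02e-06) and overlapped with IVF, from which they differed by 0.30 ± 0.10.

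*Mest* was lower in Spi-C NT than in TSA(–) without overlap. Its levels were 4.0 to 4.45 (median 4.19) in TSA(–) and 3.23 to 3.88 (median 3.44) in Spi-C NT, and the log2 difference was −0.73 ± 0.12 (adjusted p = 2.9e-05). *Mest* was also lower than in IVF (−1.25 ± 0.13, adjusted p = 1.03e-08), where the levels were 4.35 to 5.06 (median 4.78). *Dlk1* was the third lower gene, with −5.92 to −4.67 (median −5.23) in TSA(–), −6.50 to −5.30 (median −6.27) in Spi-C NT and a difference of −0.95 ± 0.21 (adjusted p = 0.0012), and the groups overlapped.

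Second probes of 2 genes that their lead probes did not call were higher in Spi-C NT than in TSA(–). A second *Gnas* probe had −8.74 to −6.92 in TSA(–), where it was well above background on 2 of 8 arrays, and −5.62 to −4.91 in Spi-C NT, where it was on all 8. It differed by 2.28 ± 0.23 (adjusted p = 2.26e-08), and from IVF by 1.72 ± 0.25 (adjusted p = 2.19e-06). The second *Plagl1* probe, well above background on all arrays, differed from TSA(–) by 1.21 ± 0.32 (adjusted p = 0.00532).

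The other 6 higher genes overlapped between the groups. The lead probe of *Sfmbt2* had −0.71 to −0.04 (median −0.35) in IVF, −0.26 to 1.31 (median 0.43) in TSA(–) and 0.97 to 2.37 (median 1.74) in Spi-C NT. All Spi-C NT arrays lay above IVF, and the differences were 1.15 ± 0.21 (adjusted p = 0.000115) from TSA(–) and 2.05 ± 0.22 (adjusted p = 3.77e-08) from IVF. Its other 2 probes were not called against TSA(–), and with the mean over the probes the call was lost (adjusted p = 0.0815). *Peg3* had −2.65 to −0.83 (median −2.32) in TSA(–) and −1.48 to 0.48 (median −1.10) in Spi-C NT, with a difference of 1.21 ± 0.33 (adjusted p = 0.00591). This call was lost without any single one of TSA(–) replicates 2, 3, 4, 6, 7 and 8, replicates 3 and 4 at 1.0 mg/ml and replicate 3 at 0.1 mg/ml, with adjusted p-values of 0.0105 to 0.0175. *Sgce* had −0.50 to 1.54 (median 0.76) in TSA(–) and 1.27 to 2.29 (median 1.76) in Spi-C NT (1.09 ± 0.28, adjusted p = 0.00394), and was not called without replicate 4 at 0.1 mg/ml (adjusted p = 0.0107). *Ddc*, which encodes the decarboxylase that makes dopamine and serotonin, had −2.22 to −1.42 (median −1.73) in TSA(–) and −1.69 to −0.40 (median −0.96) in Spi-C NT (0.76 ± 0.19, adjusted p = 0.00317). Its other probe, well above background on no Spi-C NT array and on 2 TSA(–) arrays, differed by −0.90 (not called), and the mean over both probes by −0.07 (adjusted p = 0.878). The *Ddc* call was also lost with median centring and with the replicate block. *Ube3a* had 1.65 to 2.58 (median 2.13) and 2.39 to 3.15 (median 2.90) (0.69 ± 0.15, adjusted p = 0.000906), and its other probe was also called higher, by 0.67. *Grb10*, the neighbour of *Ddc*, had 2.22 to 2.95 (median 2.60) and 2.84 to 3.33 (median 3.01) (0.47 ± 0.12, adjusted p = 0.00398). The *Grb10* call was lost with median centring and with the mean over its 3 probes (highest adjusted p = 0.399). Median centring also ended the calls of *Peg3* and *Sgce*, as did the mean over the probes of each gene.

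**Figure D3:**
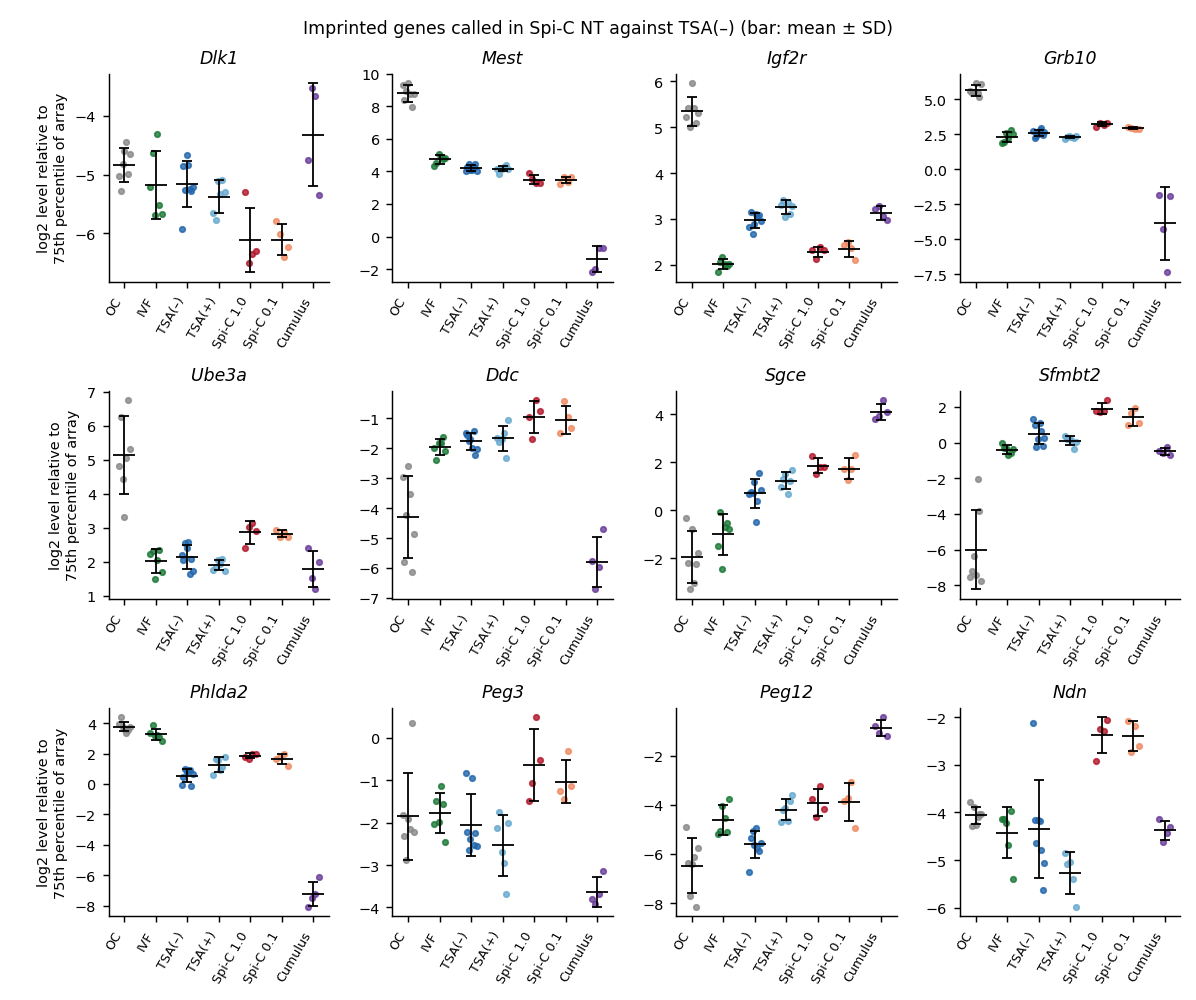
Levels (y axis, log2 relative to the 75th percentile of the array) of the 12 imprinted genes called in Spi-C NT against TSA(–), in the 7 groups (x axis), with arrays as points and the mean ± SD as black bars. From *Dlk1*, *Mest* and *Igf2r*, which are lower in Spi-C NT than in TSA(–), the panels are ordered to *Ndn*, whose lead probe had the largest increase (1.95).

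Against IVF, 16 of the 35 genes were called in Spi-C NT embryos, 9 higher and 7 lower, which is 45.7% beside 41.8% of all genes (20.4% higher and 21.4% lower). *Impact* (2.35 ± 0.20, adjusted p = 5.92e-10), *Sgce* (2.80 ± 0.30, adjusted p = 3.31e-08) and *Gab1* (1.61 ± 0.25, adjusted p = 6.73e-06) were higher. *Nnat* (−3.56 ± 0.37, adjusted p = 1.77e-08), *Cdkn1c* (−2.68 ± 0.29, adjusted p = 3.01e-08) and *Magel2* (−2.06 ± 0.32, adjusted p = 6.83e-06) were lower. *Ddc* (0.96) and *Grb10* (0.74) were called higher by their lead probes, whereas another probe of each was called lower (−1.47 and −2.33), on which no Spi-C NT array was well above background. The means over the probes were −0.25 and −0.89. *Usp29*, which encodes a deubiquitinase, was higher (0.90 ± 0.28, adjusted p = 0.00986), and *Meg3* was lower (−0.79 ± 0.23, adjusted p = 0.00596). The call of *Usp29* was kept in 3 of 11 alternative settings, and was lost without any single array of either group other than IVF replicate 3 and replicate 1 at 1.0 mg/ml (adjusted p = 0.012 to 0.0253). The call of *Meg3* was lost without IVF replicate 3, 4 or 6, replicate 2 or 4 at 1.0 mg/ml or replicate 1, 3 or 4 at 0.1 mg/ml (adjusted p = 0.0115 to 0.0183). Another *Meg3* probe, well above background on all arrays of both groups, was called lower without overlap (−1.01 ± 0.19, adjusted p = 0.000102). No gene was called between the concentrations of *Spi-C* mRNA, where limma also called 0% of all genes. There *Smoc1* alone had an unadjusted p under 0.05 (1.86 ± 0.55, adjusted p = 0.999), with −4.22, −5.06, −4.92 and −5.12 at 1.0 mg/ml and −7.78, −5.32, −5.27 and −8.38 at 0.1 mg/ml. At 0.1 mg/ml it was well above background on 2 of 4 arrays.

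Proteins of the Spi-C subfamily bind a purine-rich site known as the PU box, GAGGAA. These 6 letters, searched on both strands of the 250 bases before the start, stood in 6 of the 28 genes with a sequence and in 23.1% of all genes in the table. Among the 11 genes called in Spi-C NT against TSA(–) that had a sequence, *Mest*, *Peg3* and *Peg12* held them. None of the 4 sequences printed above did.

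Fertilized embryos were compared with oocytes to see which transcripts rise or fall from the oocyte to the 2-cell stage. Of the 35 genes, 19 were called, 7 higher and 12 lower, which is 54.3% beside 71.4% of all genes (26.6% higher and 44.8% lower). Median centring of the arrays gave 7 higher and 22 lower genes, a count not set against that of all genes in this setting. The median log2 difference of all genes was −0.75 on the scale used and −1.43 with median centring, and that of the 35 genes was −0.52. By lead probe, the 5 paternally expressed genes that rose were *Nnat*, *Sfmbt2*, *Impact*, *Ddc* and *Peg12*, and the maternally expressed ones were *Cdkn1c* and *Zim1*. Of genes not called by lead probe, second probes of *Peg3* (2.83) and *Rasgrf1* (2.66) were called higher. Both were well above background on no OC array and on all IVF arrays. Other probes of *Gnas* (−2.89 and −1.88) and *Slc38a4* (−1.38) were called lower, none of them well above background on all arrays of either group.

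*Nnat* was well above background on no OC array and on all IVF arrays, and was at least 18.9-fold higher in IVF. This bound sets the mean of the IVF arrays against, for each OC array, the larger of its own signal and the lowest signal well above background. The lead probe of *Sfmbt2* was −7.77 to −2.02 (median −7.17) in OC, where 2 of 7 arrays were well above background, and differed by 5.62 ± 0.60 (adjusted p = 1.62e-09). Its other 2 probes did not rise (−0.795 and −0.345, not called). *Impact* differed by 4.64 ± 0.34 (adjusted p = 5.46e-13) and was well above background on 1 OC array. *Cdkn1c* differed by 4.06 ± 0.41 (adjusted p = 4.22e-10) and *Zim1* by 3.66 ± 0.46 (adjusted p = 3.15e-08), with Zim1 levels of −7.99 to −4.0 (median −6.51) in OC and −2.90 to −1.51 (median −2.34) in IVF. *Ddc* (2.34 ± 0.41, adjusted p = 1.09e-05) and *Peg12* (1.87 ± 0.38, adjusted p = 8.01e-05) rose less, and the arrays of *Peg12* overlapped. *Peg12* was well above background on 1 OC array, and its call was lost with normexp and with the slide as a fixed block (highest adjusted p = 0.0131). That of *Ddc* was lost with the mean over its probes (0.056).

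The genes that fell from OC to IVF were led by *Cd81*, which encodes a tetraspanin of the cell surface (−4.86 ± 0.40, adjusted p = 5.84e-12), *Kcnq1*, which encodes a potassium channel (−4.67 ± 0.22, adjusted p = 1.37e-17), and *Mest* (−4.06 ± 0.23, adjusted p = 1.06e-15). *Igf2r* (−3.33 ± 0.13, adjusted p = 4.41e-19), *Grb10* (−3.30 ± 0.50, adjusted p = 9.66e-07), *Ube3a* (−3.11 ± 0.34, adjusted p = 3.36e-09) and *Copg2* (−2.69 ± 0.18, adjusted p = 9.32e-14) also fell by their lead probes. The other 2 *Grb10* probes (−0.465 and 0.662) and the other *Ube3a* probe (−0.495) were not called, whereas another *Copg2* probe was called lower (−2.64). Lesser falls were those of *Igf2* (−2.51), *Mkrn3* (−2.55), *Usp29* (−2.38), *Slc22a18*, a transporter gene (−1.29), and *Gab1* (−0.88). *Mkrn3* was well above background on 2 of 6 IVF arrays and 4 of 7 OC arrays, and its call was lost in 5 of 13 settings, among them quantile normalization, normexp and the slide as a fixed block (highest adjusted p = 0.0901). *Slc22a18* was not called by the mean over its probes (0.467). *Gab1* was not called without OC replicate 3, 4, 5 or 7 or without IVF replicate 2, 3 or 4 (adjusted p = 0.0124 to 0.0317), and on 1 of 4 shared scan days its difference was 0.09. Of the 12 genes that fell, 7 are maternally expressed and 5 paternally expressed.

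Cumulus cells, the source of the donor nuclei, differed from IVF embryos in 25 of the 35 genes, 11 higher and 14 lower, which is 71.4% beside 64.1% of all genes (29.2% higher and 34.9% lower). The share of higher genes among those called was 44% on this scale and 56% with median centring. *Phlda2* was well above background on 1 of 4 Cumulus arrays, so that the fitted difference of its lead probe (−10.50 ± 0.30, adjusted p = 1.04e-22) rests on signals near background. Its further probe, above background on no Cumulus array, was at least 458-fold lower there than in IVF. *Cd81* had the largest difference among the higher genes (8.11 ± 0.46, adjusted p = 1.61e-15), with 6.94, 6.74, 7.05 and 7.14 in Cumulus and −2.15 to 1.26 (median −1.45) in IVF. *Smoc1* (5.90), *Sgce* (5.11), *Mkrn3* (4.51), *Peg12* (3.74), *Slc38a4* (3.42), *Impact* (3.04) and *Meg3* (2.83) were also higher. *Gnas* (1.37), *Igf2r* (1.12) and *Plagl1* (0.93) were higher by less. The other *Plagl1* probe, well above background on all arrays, was called lower in Cumulus without overlap (−1.69 ± 0.49, adjusted p = 0.00342), and the mean over both probes was −0.38. The mean over the 3 *Gnas* probes was not called (adjusted p = 0.0114). The call of *Plagl1* was lost without IVF replicate 1 (adjusted p = 0.0111) or Cumulus replicate 4 (0.0241), and that of *Slc38a4* without IVF replicate 3 or 5 or Cumulus replicate 1, 3 or 4 (0.0114 to 0.0168). *Zim1* and *Usp29* were well above background on no Cumulus array, and were at least 18.7-fold and at least 10.3-fold lower there than in IVF. *Mest* (−6.13), *Grb10* (−6.17), *Cdkn1c* (−6.07), *Igf2* (−5.77) and *Kcnq1* (−4.20) were lower as well, of which *Igf2* was well above background on 1 and *Grb10* on 3 of the 4 Cumulus arrays.

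**Figure D4:**
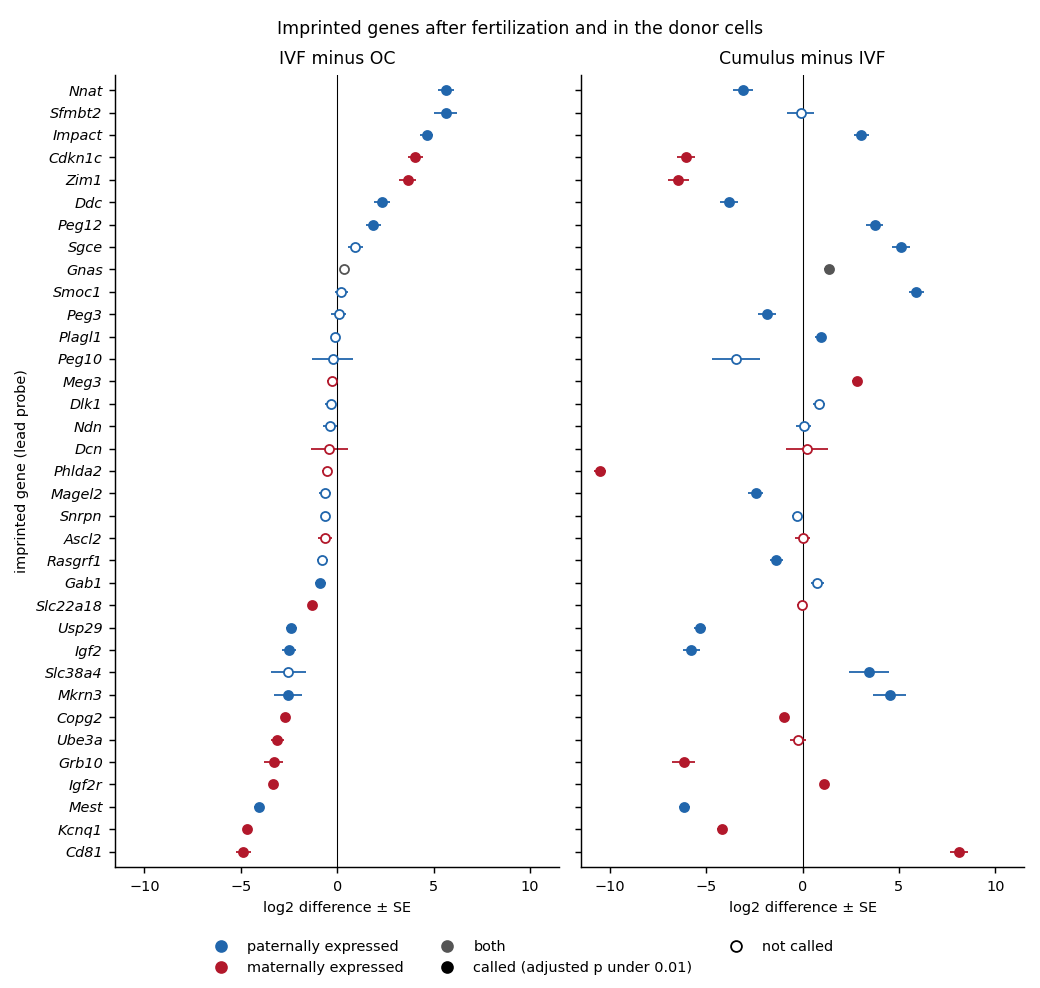
Log2 difference (x axis, ± SE) of the 35 imprinted genes (y axis, ordered by the left panel) between IVF embryos and oocytes (left) and between Cumulus and IVF (right). Filled points were called at an adjusted p under 0.01; *Nnat* on the left and *Zim1* and *Usp29* on the right were well above background on no array of the lower group and *Phlda2* on the right on 1, so their points do not give the size of the difference, and *Cd81* (8.11) lies farthest to the right.

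The differences of Cumulus and of cloned embryos from IVF share the IVF arrays. For *Impact* they were 3.04 in Cumulus beside 2.23 in TSA(–), for *Sgce* 5.11 beside 1.70, for *Igf2r* 1.12 beside 0.95 and for *Gab1* 0.76 (not called) beside 1.57. For *Nnat* they were −3.09 beside −2.97, for *Cdkn1c* −6.07 beside −2.36 and for *Magel2* −2.44 beside −1.43. Among the genes called in TSA(+) but not in TSA(–), *Meg3* and *Gnas* went the other way. Both were called higher in Cumulus and lower in TSA(+) (−1.32 and −0.97), whereas *Smoc1* was higher in both. The part of residual cumulus transcripts in these differences was not tested. The summed cumulus marker level given above overlapped between IVF (4.81 to 8.6) and TSA(–) (4.53 to 8.5), and ranged from 8.37 to 11.3 in TSA(+). In the embryo groups its highest member was *Amhr2*, with a mean level of 2.61 in IVF and 2.21 in Cumulus, so that this gene does not tell embryos from cumulus cells. Other markers differed in either direction: *Inhba* had mean levels of −6.43 in IVF, −4.35 in TSA(–) and −5.99 in TSA(+), and *Tnfaip6* −1.71, −4.03 and −4.16.

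Other imprinted genes on the array were taken from a list of 49, of which 41 had a probe. In TSA(–) against IVF, 14 of the 41 were called, 6 higher and 8 lower, and in TSA(+) 14 were called, 4 higher and 10 lower. These are 34.1% in each, beside the 23.5% and 24.2% of all genes. The largest differences in TSA(–), beside that of *Xist*, were those of *Klf14*, *Dio3*, *Tfpi2*, *Pon2* and *Gpr1*. *Klf14* and *Tfpi2* were well above background on all IVF arrays and on no TSA(–) array, and were at least 69.9-fold (adjusted p = 2.31e-11) and at least 6.46-fold (1.57e-08) lower there. The log2 difference was −4.30 ± 0.58 (adjusted p = 1.33e-06) for *Dio3*, 1.92 ± 0.48 (adjusted p = 0.00316) for *Pon2* and −1.23 ± 0.28 (adjusted p = 0.00123) for *Gpr1*. *Klf14* encodes a Krüppel-like transcription factor, *Dio3* the enzyme that inactivates thyroid hormone, *Tfpi2* a protease inhibitor, *Pon2* a paraoxonase and *Gpr1* a chemerin receptor. *Xist*, the RNA that coats the inactive X chromosome, was higher in TSA(–) (4.56 ± 0.50, adjusted p = 4.83e-08) and in TSA(+) (4.48 ± 0.54, adjusted p = 2.21e-07). The donor cells were female, and the sex of the IVF embryos was not analysed here. None of the 41 was called between TSA(+) and TSA(–), where 9 had an unadjusted p under 0.05, a count for which the share of all genes is not given here. In Spi-C NT against TSA(–), 8 were called, 5 higher and 3 lower, which is 19.5% beside 24.2% of all genes.

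Of 25 genes that set or protect imprints, 24 had a probe. In TSA(–) against IVF, 3 of them were called, 4.17% of them higher and 8.33% lower, beside 10.1% and 13.4% of all genes. *Ehmt2*, a methyltransferase of histone H3 at lysine 9, was higher (0.63 ± 0.15, adjusted p = 0.00195), and *Dnmt3l* (−0.59 ± 0.15, adjusted p = 0.00366), a cofactor of de novo DNA methylation, and *Uhrf1* (−0.53 ± 0.13, adjusted p = 0.00237), which recruits the maintenance methyltransferase, were lower. In TSA(+), 4 were called, which is 16.7% beside 24.2%. *Ehmt2* was higher (0.94), and *Dnmt3l* (−0.70), *Uhrf1* (−0.65) and *Zfp57* (−1.21 ± 0.33, adjusted p = 0.0055), a zinc finger protein that protects methylated imprints, were lower. In Spi-C NT against TSA(–), 12 of the 24 were called, 5 higher and 7 lower, which is 50% beside 24.2% of all genes (20.8% beside 13.6% higher and 29.2% beside 10.5% lower). They included *Ezh2* (−0.71 ± 0.09, adjusted p = 8.85e-07) and *Eed* (−0.68 ± 0.09, adjusted p = 2.41e-06) of the complex that trimethylates histone H3 at lysine 27, *Dnmt3b* (−0.74 ± 0.12, adjusted p = 5.22e-05) and *Dnmt3a* (0.85 ± 0.24, adjusted p = 0.00734). From OC to IVF, 20 of the 24 were called, 2 higher and 18 lower, which is 83.3% beside 71.4% of all genes (8.33% beside 26.6% higher and 75% beside 44.8% lower).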

How the data were processed

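The authors deposited 39 Agilent 1-colour Feature Extraction files of processed spot intensity, and a table of log2 values on a normalized scale. The submitters' notes name Agilent Feature Extraction 9.5.3.1, and the file headers give version 9.5.3.1 for 27 arrays (scanner G2505B) and 10.5.1.1 for the 12 Cumulus and Spi-C NT arrays (scanner G2505C). The authors normalized in GeneSpring GX and tested by one-way ANOVA with Tukey's HSD. The table's columns have medians of −0.297 to 1.08. Values on the scale used here, once each probe was centred on its median over the arrays, differed from those of the table by a median of −0.004.

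Here, log2 of the processed intensity minus log2 of each array's 75th percentile was used, control and outlier spots were left out (1820 missing values), and probes with an intensity of at least 10 on 1 IVF or SCNT array were kept (39517 of 41174). The other alternatives tried were quantile normalization, median centring, normexp (offset 50), other filters, slide, scan day or replicate blocks, leaving out each array, the mean over a gene's probes and other thresholds. Of the probes, 27829 had 1 symbol through RefSeq accessions, 32 had several and 13313 had none. For 9775 probes the accession differed between array files.

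Differences were tested with limma 3.58.1 (R 4.3.3) and Benjamini-Hochberg adjustment over all probes, in a fit of OC, IVF, TSA(–), TSA(+) and Cumulus and in a fit of IVF, TSA(–), TSA(+) and both *Spi-C* concentrations, whose mean is Spi-C NT. The script was tested on simulated data. The members and gene lists were chosen with earlier results of these data known. Every member is accounted for, and per-array values are given for genes called between embryo groups. Of the other imprinted genes, the 5 largest called in TSA(–) against IVF besides *Xist* are named. The number of arrays limits the precision.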

Additional observations from a re-analysis of the deposited data

Results flagged for a closer look

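In 202 groups of 4 to 8 arrays of the imprinted genes, the highest or lowest array was set against the spread of its group (Dixon's test), and 12 groups (5.94%) held an array that stood apart. Chance gives about 1 in 20. All levels are log2 relative to the 75th percentile of the array.

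OC replicate 6 stood apart for 3 genes. It had the highest *Peg3* level of the oocytes (0.34, nearest −1.81), the lowest *Slc38a4* level (−3.94, nearest −1.1) and the lowest *Cd81* level (3.1, nearest 3.65). *Cd81* also had an IVF array above the others (replicate 1, 1.26, nearest −0.9) and a TSA(+) array below them (replicate 3, −1.14, nearest −0.15). IVF replicate 1 was the lowest for *Plagl1* (2.85, nearest 3.48), as was replicate 1 at 0.1 mg/ml of *Spi-C* mRNA (2.52, nearest 3.53).

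TSA(–) replicate 1 had an *Ndn* level of −2.13, against −4.15 for the nearest TSA(–) array, and TSA(–) replicate 6 the lowest *Zim1* level (−2.02, nearest −1.3). At 1.0 mg/ml of *Spi-C* mRNA, replicate 4 had the highest *Sfmbt2* level (2.37, nearest 1.76). At 0.1 mg/ml, replicate 2 had the lowest *Nnat* level (−5.53, nearest −4.01) and the highest *Peg10* level (−3.34, nearest −4.19). No cause was tested.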

How the results depend on the processing

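Of the called imprinted genes, 6 of 8 in TSA(–) and 10 of 11 in TSA(+) against IVF were called under every alternative setting that was run (leaving out arrays aside), as were 6 of 12 in Spi-C NT against TSA(–), 12 of 16 in Spi-C NT against IVF, 14 of 19 in IVF against OC and 19 of 25 in Cumulus against IVF. Counts that moved by more than 1.5 times were 1 for TSA(+) against TSA(–) by the one-way test and Tukey's HSD, 6 for Spi-C NT against TSA(–) and 10 for Spi-C NT against IVF when a 2-fold change was also required, and 29 for IVF against OC with median centring. The mean over a gene's probes reversed *Ddc* in Spi-C NT against TSA(–) (−0.066) and against IVF (−0.252), *Grb10* in Spi-C NT against IVF (−0.887) and *Plagl1* in Cumulus against IVF (−0.378), since their probes differ in direction. With normexp, *Rasgrf1* in Cumulus against IVF was 0.016, and the cause was not tested.

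With 1 array left out at a time, the number of genes called was 8 to 10 in TSA(–) and 11 to 12 in TSA(+) against IVF, 0 to 0 between them, 11 to 12 in Spi-C NT against TSA(–), 14 to 17 in Spi-C NT against IVF, 0 to 0 between the concentrations, 18 to 21 in IVF against OC and 24 to 26 in Cumulus against IVF. With the replicate number as a block it was 8, 11, 0, 8, 15, 0, 18 and 24 in the same order. In Spi-C NT against TSA(–) that block ended the calls of *Peg3*, *Dlk1*, *Sgce* and *Ddc*. The deviations of same-numbered arrays from their group means correlated weakly (r between −0.088 and 0.085). Arrays of different numbers were not compared in this way, so the check cannot settle whether the numbers pair arrays. A fixed slide block cannot be fitted for Cumulus and Spi-C NT against groups on other slides, and a scan day block was fitted for the other groups alone. By another criterion, a signal above 95% of the negative control spots, 25 genes were detected on all OC arrays and 34 on all IVF arrays.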
